A study of Mus musculus with 12 samples.

Results

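The retinoblastoma and E2F family was followed in bulk RNA sequencing of mouse cortex, in which the 10 genes Rb1, Rbl1, Rbl2, E2f1, E2f2, E2f3, E2f4, E2f5, E2f6 and E2f8 were taken by gene symbol from a table of 33024 symbols. All 10 are among the 16059 genes that passed the expression filter. The tissue came from 12 wild-type C57BL/6 mice of the abstinence arm of the study (Arm #2), which compared mice that had drunk ethanol with water drinkers. On each of 35 nights, from 30 days of age, the 5 EtOH mice could drink from a bottle of water and a bottle of 20% (v/v) ethanol during 12 h of darkness (two-bottle choice drinking in the dark). They were then abstinent for 14 days and went through behavioural tests before the brain was perfused and dissected. The 7 Control mice, labelled as vehicle, were offered water in both bottles on the same schedule. Each mouse gave 1 library, and the labels give no sex.

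Pocket proteins, encoded by Rb1, Rbl1 and Rbl2, hold back the cell cycle by binding E2F transcription factors. Cyclin D and cyclin E kinases phosphorylate the pocket proteins at the end of G1, which frees the activating E2Fs to switch on genes of DNA replication. In cells that have left the cycle, E2f4 or E2f5 together with Rbl1 or Rbl2 and the MuvB core form the DREAM complex, which keeps S phase and mitotic genes silent. Mature cortical neurons are post-mitotic, and the family is known there for guarding that state as well as for roles in neuronal death.

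E2F factors recognise a short GC-rich element near the start of their targets, and several family genes carry it themselves. It was searched for in RefSeq promoter windows (GRCm38.p6, 250 bases before to 50 bases after an annotated start) as TTTCCCGC, TTTCGCGC, TTTGCCGC or TTTGGCGC on either strand. Of the 10 members, 7 have a listed window, with 9 windows in all. Rb1, E2f4 and E2f5 are without an entry. The element was present in 3 of the 7, against 704 of 27025 listed genes (2.60%), and the stretches around it are shown because these 3 members hold the sequence that the family itself reads. Capitals mark the element, and each stretch is written 5′ to 3′ along the gene's own strand, on which the E2f3 element appears as its reverse complement.
Rbl1, chr2:157204534-157204563, minus strand: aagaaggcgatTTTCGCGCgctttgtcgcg
E2f2, chr4:136172302-136172323, plus strand: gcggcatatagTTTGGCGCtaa
E2f3, chr13:29986056-29986085, minus strand: ttgaaaagccgGCGGGAAAtctgagtttcg
The element began 18 bases before the start in Rbl1, 11 bases before it in E2f3 and at base 40 after it in E2f2. The listed windows of E2f1, E2f6, E2f8 and Rbl2, and a further window of both E2f2 and E2f3, did not hold these letters. A match is a description of the sequence, and no binding was measured.

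Total counts lay between 31768076 and 33313165 in 10 libraries, while Control 5 (40690223) and EtOH 1 (42183029) were deeper. Levels are given as CPM, which are counts divided by the TMM-normalized size of the library. A gene with 3 counts, the detection floor used here, would have 0.0695 to 0.0962 CPM depending on the library. All 8 markers of cortical excitatory neurons were detected, with summed levels of 5373 to 6855 CPM in Control and 6011 to 7166 CPM in EtOH mice, and 3 of them were higher and 1 lower in EtOH mice. Markers of other regions and cells also moved with the group. All 15 striatum markers were lower in EtOH mice (summed level 1721 to 3601 CPM in Control and 503 to 583 CPM in EtOH), 7 of 10 hippocampus markers were higher and 1 lower (205 to 239 and 310 to 409 CPM), 7 of 10 microglia markers were lower (381 to 439 and 326 to 349 CPM) and 8 of 10 oligodendrocyte markers were lower (4483 to 5952 and 3005 to 5372 CPM). Of 9 astrocyte markers, 3 were higher and 1 lower (3608 to 4142 and 3891 to 4437 CPM). No marker in these lists had a group mean of 0. The part of these markers in the results below was not tested. The scores of the striatum and hippocampus lists explained 98.1% of the variance of group membership, so a fit that adjusts for them cannot tell the markers from the group.

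The family was expressed at very unequal levels. Divided by exon length, E2f4, the main repressive E2F of resting cells, was the most abundant member in Control mice with 7.25 ± 0.705 CPM per kb (SD, n = 7). E2f1 (5.59 ± 0.844) and E2f3 (5.50 ± 0.476), both activators, followed at levels that differed from each other by less than their SD, and the ranges of E2f4 (5.85 to 8.05) and E2f1 (4.39 to 7.07) overlapped. Then came Rbl2 (3.00 ± 0.307), Rb1 (2.95 ± 0.292), E2f5 (2.74 ± 0.333) and E2f6 (2.69 ± 0.0992), among which no neighbours in the order differed by more than the larger of their SDs. Rbl1 (0.324 ± 0.0750), E2f2 (0.170 ± 0.0537) and E2f8 (0.0727 ± 0.0309), which are known as genes of cycling cells, stood far lower. The ranges of E2f6 and Rbl1 did not overlap, while those of Rbl1 and E2f2, and of E2f2 and E2f8, did. E2f4, E2f1 and E2f3 made up 23.9%, 18.5% and 18.2% of the summed level of the family in Control mice. The order and the shares depend on the exon lengths used. In CPM not divided by length, E2f4 again stood first in Control mice (mean 41.9). Rb1 (35.6), Rbl2 (35.5) and E2f6 (32.3) were then above E2f3 (29.8) and E2f1 (19.3).

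In EtOH mice E2f4 again stood first with 6.05 ± 0.447 CPM per kb (SD, n = 5), but E2f3 came next with 5.90 ± 0.145, a difference from E2f4 of less than the SD of E2f4. E2f1 came after it with 4.39 ± 0.569 and lay between 3.39 and 4.73 in the 5 mice, below the E2f3 range of 5.73 to 6.12. In Control mice the same 2 ranges overlapped (4.39 to 7.07 for E2f1 and 5.09 to 6.53 for E2f3). Whether the order differed between the groups was not tested. E2f4, E2f1 and E2f3 then made up 21.4%, 15.5% and 20.9% of the summed level. In CPM not divided by length, Rb1 (mean 39.3) and Rbl2 (36.9) stood above E2f4 (34.96) in EtOH mice.

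**Figure D1:**
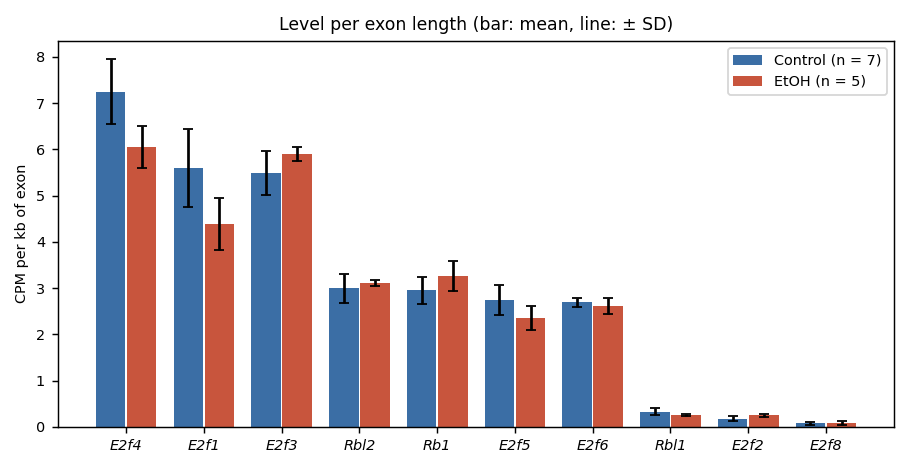
Level of the 10 members divided by exon length (vertical axis, CPM per kb of exon) in Control (blue, n = 7) and EtOH mice (red, n = 5), with bars for means and lines for ± SD. E2f4 stood first in both groups (7.25 and 6.05 CPM per kb), and Rbl1, E2f2 and E2f8 lay under 0.5 CPM per kb.

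Between the groups, 2 of the 10 members changed, and both fell in EtOH mice: E2f1, an activator, by 0.35 and E2f4, a repressor, by 0.26 on the log2 scale. No member was higher at an adjusted p under 0.05, and the remaining 8 did not pass the test. In the quasi-likelihood test of edgeR (Benjamini-Hochberg adjustment over all genes), 23.7% of all 16059 tested genes passed the same threshold, 11.6% lower and 12.1% higher, so 2 of 10 is near the background. With the fold threshold of the study's methods added (log2 fold change over 0.5 in size), 0 of 10 members were called, against 8.29% of all genes. There was no member in which every EtOH mouse lay below or above every Control mouse, an arrangement found downward in 4.96% and upward in 4.84% of all genes. The median log2 fold change of the family was 0.01, with 5 members positive and 5 negative, and 7.21e-05 over all tested genes. In tissue RNA, fewer cells that express a gene cannot be told apart from less RNA of it per cell.

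**Figure D2:**
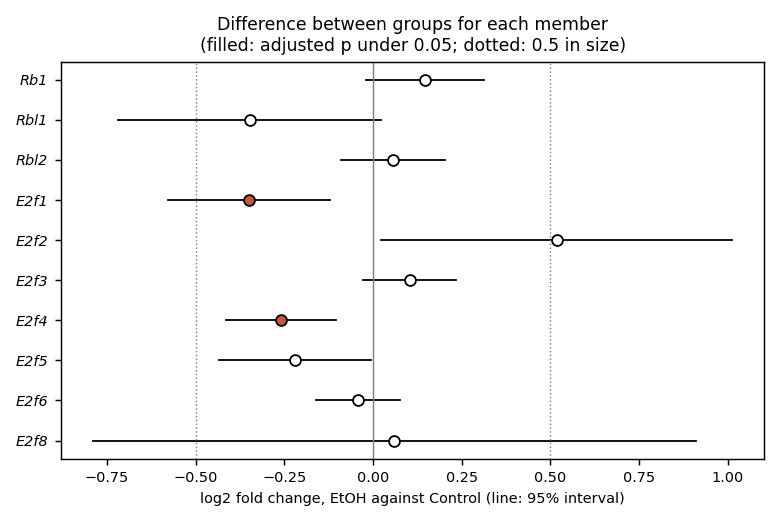
Log2 fold change of each member, EtOH (n = 5) against Control mice (n = 7), as points with 95% intervals as lines; filled points have an adjusted p under 0.05 and dotted lines mark 0.5 in size. Only E2f1 (-0.35) and E2f4 (-0.26) are filled, and the intervals of E2f2 (0.02 to 1.01) and E2f8 (-0.79 to 0.91) are the widest.

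The pocket protein genes gave no difference that passed the test. Rb1, the founding tumour suppressor of the family (chr14:73421113-73563507, GRCm39, minus strand), lay between 30.5 and 40.8 CPM in Control mice with a median of 35.9. In the 5 EtOH mice Rb1 had 41.4, 41.9, 42.9, 33.4 and 37.1 CPM. Thus 3 EtOH mice were above every Control mouse, and the other 2 were within the Control range. The log2 fold change of Rb1 was 0.15 (SE 0.08, 95% interval -0.02 to 0.31, edgeR quasi-likelihood test, Benjamini-Hochberg adjusted p = 0.188).

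Rbl2, which encodes p130, the pocket protein typical of resting cells (chr8:91796664-91850492, plus strand), lay between 28.4 and 38.5 CPM in Control mice with a median of 36.1. In EtOH mice it lay between 36.1 and 37.8 CPM, inside the Control range in all 5. The log2 fold change was 0.06 with an interval of -0.09 to 0.20 (edgeR adjusted p = 0.600), so a change of the size seen for E2f4 lies outside it in either direction. Rbl1, which encodes p107, the pocket protein of cycling cells (chr2:156987813-157046475, minus strand), was scarce, with 1.73 to 3.19 CPM in Control mice (median 2.30) and 1.64 to 2.21 in EtOH mice (median 1.88). In 2 EtOH mice Rbl1 was below every Control mouse. Its log2 fold change of -0.35 was as large as that of E2f1 but had a wider interval, -0.72 to 0.02, from 54 to 101 counts per library (edgeR adjusted p = 0.161). Exons of opposite-strand genes overlap 44.4% of the exon length of Rbl2, 7.43% of that of Rb1 and 4.63% of that of Rbl1, and whether the counting used the strand is not given in the sources used here.

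Among the activating E2Fs, E2f1, which drives entry into S phase and can also drive apoptosis, was lower in EtOH mice (chr2:154401326-154411812, minus strand, with no overlapping exon of another gene). Control mice lay between 15.2 and 24.5 CPM with a median of 19.0. The 5 EtOH mice had 16.3, 15.4, 11.7, 16.1 and 16.4 CPM. EtOH 3 was the lowest of all 12 mice, and the other 4 EtOH mice lay between Control 2, at 15.2 CPM, and the remaining 6 Control mice, so the groups overlapped through Control 2 alone. The mean was 15.2 ± 1.97 CPM (SD, n = 5) in EtOH and 19.3 ± 2.92 CPM (SD, n = 7) in Control mice. E2f1 thus fell by 0.35 on the log2 scale (SE 0.11, 95% interval -0.58 to -0.12, edgeR adjusted p = 0.0261), which is a change of -21.5%. The adjusted p was 0.0735 without EtOH 3, with a log2 fold change of -0.27, and 0.0533 without Control 3, the highest Control mouse, with -0.28.

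E2f2, an activator of cycling cells (chr4:135899585-135923368, plus strand), had the largest log2 fold change of the family in size, 0.52, at a very low level. Control mice lay between 0.501 and 1.22 CPM with a median of 0.821, and the 5 EtOH mice had 0.997, 1.40, 1.34, 1.03 and 1.37 CPM. EtOH 2, EtOH 3 and EtOH 5 were above every Control mouse, and the other 2 were above the Control median. With 16 to 45 counts per library the 95% interval of the log2 fold change ran from 0.02 to 1.01, and the difference did not pass over all genes (edgeR adjusted p = 0.119). E2f3 had the highest level of the activator genes in EtOH mice (chr13:30090558-30170046, minus strand, 12.1% of its exon length overlapped on the opposite strand). Counts are per gene, so transcripts from its different listed starts are not told apart. E2f3 lay between 27.6 and 35.4 CPM in Control mice (median 29.0) and between 31.1 and 33.2 CPM in EtOH mice (median 31.99). All 5 EtOH mice were above 6 of the 7 Control mice and below Control 6. The log2 fold change was 0.10 with an interval of -0.03 to 0.23 (edgeR adjusted p = 0.242), and without Control 6 it was 0.15 (adjusted p = 0.0440).

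Of the repressive E2Fs, E2f4, the E2F of the DREAM complex in resting cells, was lower in EtOH mice (chr8:106024243-106032003, plus strand, 0.329% of its exon length overlapped on the opposite strand). Control mice lay between 33.8 and 46.5 CPM with a median of 42.1. The 5 EtOH mice had 30.5, 36.1, 36.4, 36.7 and 35.1 CPM. Control 5 was the only Control mouse within the EtOH range, and the other 6, from 41.0 CPM upward, were above every EtOH mouse. The mean was 34.96 ± 2.58 CPM (SD, n = 5) in EtOH and 41.9 ± 4.07 CPM (SD, n = 7) in Control mice. E2f4 thus fell by 0.26 on the log2 scale (SE 0.07, 95% interval -0.42 to -0.10, edgeR adjusted p = 0.0171), which is a change of -16.5%.

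In each group the lowest E2f4 value was that of the deeper library, Control 5 or EtOH 1. Both were left out in an alternative chosen after seeing the data. Control 5 was the only Control mouse within the EtOH range, so leaving it out removed the overlap by construction. E2f4 then lay between 40.8 and 46.4 CPM in 6 Control mice and between 35.2 and 36.8 CPM in 4 EtOH mice. Its log2 fold change was -0.25 (SE 0.06, edgeR adjusted p = 0.00425). E2f4 was the only member whose groups were then apart, which follows from that choice. In the same 10 mice this was so for 7.86% of all genes downward and 9.11% upward. The log2 fold change of E2f1 in these mice was -0.35 (edgeR adjusted p = 0.0503). Without EtOH 1 alone, that of E2f4 was -0.21 (adjusted p = 0.0579). In the fit with the striatum and hippocampus scores, which cannot tell them from the group, the log2 fold change of E2f4 turned to 0.25 (adjusted p = 0.957) and that of E2f1 was -0.89 (adjusted p = 0.841).

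E2f5, the other repressor of the DREAM complex (chr3:14643676-14672404, plus strand), lay between 8.16 and 12.1 CPM in Control mice with a median of 11.4. In the 5 EtOH mice it lay between 8.19 and 10.8 CPM with a median of 9.18, and all of them were inside the Control range, whose lower end is again Control 5. The log2 fold change was -0.22 with an interval of -0.43 to -0.01 (edgeR adjusted p = 0.125), and without Control 5 it was -0.29 (adjusted p = 0.0172). Opposite-strand exons of Rbis cover 43.4% of the exon length of E2f5.

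**Figure D3:**
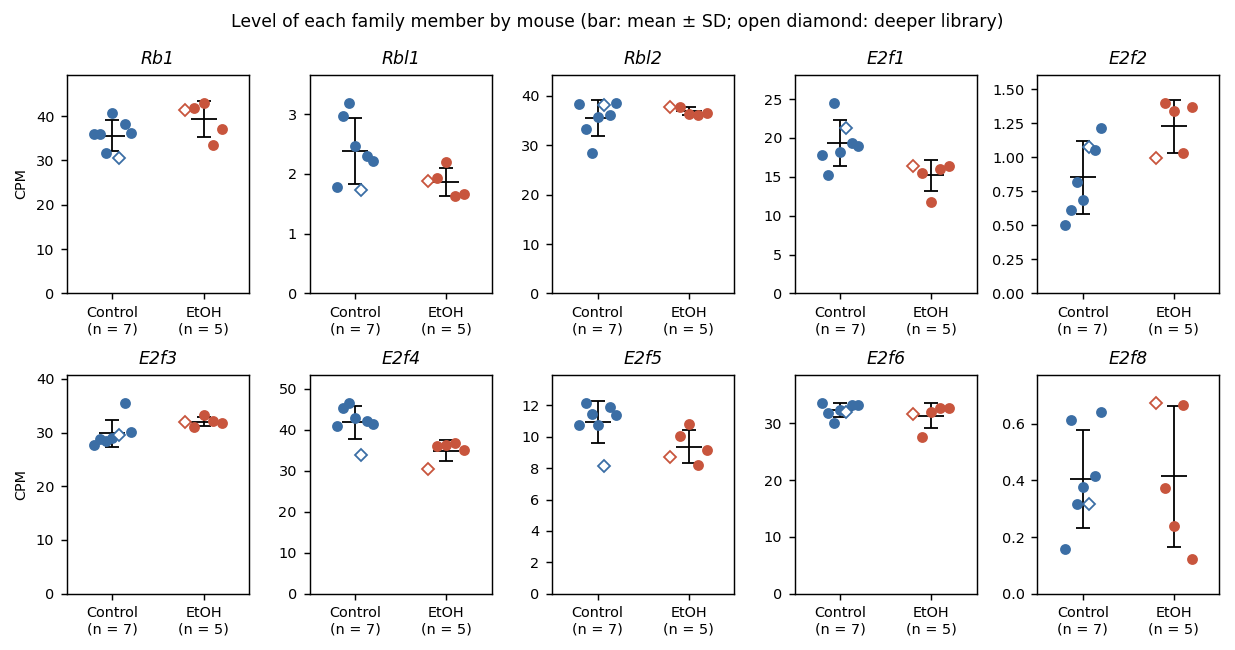
CPM (vertical axis of each panel, starting at 0) of the 10 members in each Control (blue, n = 7) and EtOH mouse (red, n = 5), with bars for mean ± SD and open diamonds for the deeper library of each group, Control 5 and EtOH 1. In E2f4 the diamonds are the lowest point of each group (33.8 and 30.5 CPM), and the other Control mice lie above all EtOH mice.

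**Figure D4:**
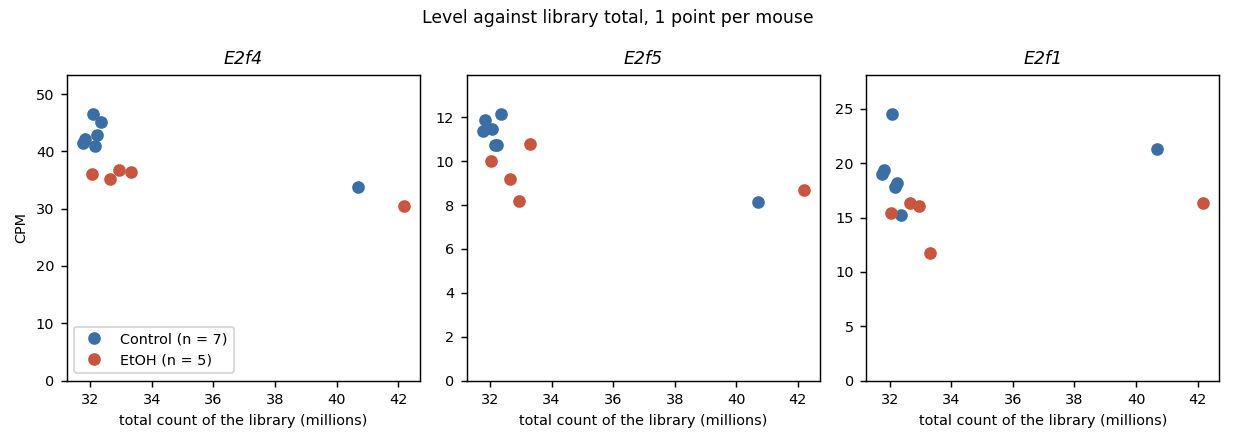
CPM (vertical axis) of E2f4, E2f5 and E2f1 against the total count of the library (horizontal axis), 1 point per mouse, Control blue and EtOH red. The 2 deeper libraries, Control 5 and EtOH 1, have the lowest E2f4 value of their group, whereas E2f1 in them (21.3 and 16.3 CPM) is not the lowest.

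E2f6, which represses through a polycomb complex and needs no pocket protein (chr12:16860874-16890766, plus strand, no overlapping exon), was the steadiest member in Control mice. It lay between 30.05 and 33.5 CPM in Control mice (median 32.3) and between 27.6 and 32.8 CPM in EtOH mice (median 31.99). EtOH 2 was below every Control mouse and the other 4 were within the Control range. The interval of the log2 fold change, -0.16 to 0.08, was the narrowest of the family (log2 fold change -0.04, edgeR adjusted p = 0.622). E2f8, an atypical E2F that represses without a dimer partner (chr7:48516176-48531452, minus strand, 20.2% of its exon length overlapped on the opposite strand), had 4 to 29 counts per library. With 0.157 to 0.641 CPM in Control and 0.122 to 0.672 CPM in EtOH mice, only a large change would have been detectable at this depth (log2 fold change 0.06, interval -0.79 to 0.91, edgeR adjusted p = 0.932).

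Members varied together within groups to different degrees. The largest positive correlations between members, after group means were removed from log2 CPM, were those of E2f4 and E2f5 with Pearson's r of 0.741 over the 12 mice, Rbl1 and E2f5 0.704, and Rbl1 and E2f4 0.666. Rbl1 and Rbl2, which encode the pocket proteins of cycling and of resting cells, ran opposite to each other (r = -0.775), as did Rbl2 and E2f4 (-0.625). E2f1 and E2f4, the 2 members that fell, had r of -0.229. Control 5, a deeper library, was the lowest Control mouse in E2f4, E2f5 and Rbl1 (33.8, 8.16 and 1.73 CPM). EtOH 1, the other deeper library, was the lowest EtOH mouse in E2f4 (30.5 CPM). The r values between members were not computed without the deeper libraries, so the part of these libraries was not tested. The r values share libraries and depth and are given as a description.

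The genes most like E2f4 in this way were Hcfc1r1 (r = 0.981), Mt1 (0.977) and Cox8a (0.975), with 0.900, 0.871 and 0.897 over the 10 mice without the deeper libraries. Those most like E2f1 were Syk (0.929), Coq9 (0.903) and Pcsk2 (0.890), and those most like E2f2 were Gm17853 (0.910), Pms2 (0.897) and Osbp (0.890). The marker scores with the largest r in size were that of microglia, which ran with E2f4 (r = 0.858 over 12 mice and 0.797 over 10) and with Rbl1 (0.811 and 0.792), and that of astrocytes, which ran against E2f1 (-0.808 and -0.790). In EtOH mice 7 of 10 microglia markers were themselves lower, and of 9 astrocyte markers 3 were higher and 1 lower, with a mean score of 7.41 in Control and 7.54 in EtOH mice. The part of these markers in the E2f4 and E2f1 results was not tested.

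Of 84 tested regulators and targets of the family in 9 lists, 14 passed the test (16.7%), below the 23.7% of all genes at the same threshold. The number was 9 without Control 1, 8 without Control 4, 9 without EtOH 1 and 7 without EtOH 5. The counts in each list below are small and stand beside 12.1% of all genes higher and 11.6% lower, so they are read as a description of the named genes. Among the regulators, most genes did not pass the test, and the changes were moderate in size except in Cdkn1a. The dimer partners that E2Fs need for DNA binding, Tfdp1 and Tfdp2, had log2 fold changes of 0.12 (edgeR adjusted p = 0.207) and -0.09 (0.220). None of the 7 genes of the MuvB core and the Myb factors passed (median -0.03). Of 8 G1 cyclins and kinases, 2 were lower and 0 higher, against 11.6% and 12.1% of all genes. Ccne1, the cyclin E that activates Cdk2, fell from 18.6 ± 2.64 CPM (SD, n = 7) to 14.9 ± 1.37 CPM (SD, n = 5), by 0.32 on the log2 scale (SE 0.10, edgeR adjusted p = 0.0245). Ccnd1, a cyclin D, fell by 0.29 (adjusted p = 0.0478), with 48.4% of its exon length overlapped on the opposite strand. The other cyclin D genes, Ccnd2 and Ccnd3, had 0.24 (adjusted p = 0.232) and 0.10 (0.410). Of 6 tested CDK inhibitors, Cdkn1a, which encodes p21, was the only one to change and fell by 1.00 on the log2 scale (adjusted p = 0.000974), with 12.5% of its exon length overlapped on the opposite strand.

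Of 7 corepressors that pocket proteins recruit, 1 was higher and 1 lower, near the 12.1% and 11.6% of all genes. Hdac1, a histone deacetylase, rose from 20.3 ± 1.43 CPM (SD, n = 7) to 24.8 ± 2.09 CPM (SD, n = 5), with every EtOH mouse above every Control mouse, as in 4.84% of all genes (log2 fold change 0.29, SE 0.07, edgeR adjusted p = 0.00605). Its close relative Hdac2 fell by 0.20 (adjusted p = 0.0397). In the polycomb complex of E2f6, 2 of 9 subunits rose and 0 fell, against 12.1% and 11.6% of all genes. Rybp, which binds the ubiquitin ligase core, had a log2 fold change of 0.27 (adjusted p = 0.00860) and Mga, the DNA-binding scaffold, one of 0.26 (adjusted p = 0.0347). In all, 8 of the 9 subunits were positive with a median of 0.11, where 8031 of the 16059 tested genes were positive.

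Of 24 S phase genes that E2Fs are known to switch on, 21 did not pass the test, 2 fell and 1 rose, with a median log2 fold change of -0.07. That is a smaller share than the 23.7% of all genes that passed. Mcm5, a subunit of the replicative helicase, fell from 6.21 ± 0.290 CPM (SD, n = 7) to 4.04 ± 0.415 CPM (SD, n = 5), by 0.62 on the log2 scale (SE 0.10, edgeR adjusted p = 0.000164). Every EtOH mouse was below every Control mouse, as in 4.96% of all genes. None of the other helicase subunits passed the test. Mcm2, Mcm3, Mcm4 and Mcm7 had log2 fold changes of -0.06, -0.22, -0.07 and -0.22, and Mcm6 had 0.21, with adjusted p of 0.106 or more. Uhrf1, which maintains DNA methylation at replication, fell by 0.71 (adjusted p = 0.0394) at a level near 1 CPM. Tk1, thymidine kinase, rose by 0.58 (adjusted p = 0.0493), with 11.3% of its exon length overlapped on the opposite strand.

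Of 15 tested mitotic genes that DREAM is known to silence, 3 fell and 0 rose, against 11.6% and 12.1% of all genes, and 14 of the 15 had a negative log2 fold change (median -0.33). Top2a, the topoisomerase that separates sister chromatids, fell from 2.17 ± 0.364 CPM (SD, n = 7) to 0.983 ± 0.316 CPM (SD, n = 5), by 1.14 on the log2 scale (SE 0.21, edgeR adjusted p = 0.000752). Kif11, a spindle motor, fell from 2.35 ± 0.452 to 1.37 ± 0.187 CPM, by 0.77 (SE 0.17, adjusted p = 0.00364). In both genes every EtOH mouse was below every Control mouse, as in 4.96% of all genes. Aurkb, a mitotic kinase, fell by 1.27 (SE 0.39, adjusted p = 0.0264), from 0.473 to 0.198 CPM, close to the floor for detection. The summed level of the 16 listed genes, with Bub1, which did not pass the filter, was 22.0 to 26.4 CPM in Control and 16.8 to 20.04 CPM in EtOH mice. Beside this list, 3 of 8 neuroblast markers were lower and 2 higher in EtOH mice, and their part in it was not tested.

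All 6 apoptosis genes that E2f1 is known to activate had a positive log2 fold change (median 0.23), where 8031 of the 16059 tested genes were positive. Of the 6, 1 passed the test, beside 12.1% of all genes higher. Apaf1, the core of the apoptosome, rose from 11.7 ± 1.18 CPM (SD, n = 7) to 21.0 ± 4.86 CPM (SD, n = 5), with every EtOH mouse above every Control mouse, as in 4.84% of all genes (log2 fold change 0.85, SE 0.12, edgeR adjusted p = 9.43e-05). Trp73, Bcl2l11 and Bbc3 had log2 fold changes of 0.52, 0.22 and 0.12 with adjusted p of 0.115 or more. Apaf1 was thus higher and E2f1 lower in EtOH mice. Whether E2f1 acts on Apaf1 in this tissue was not tested.

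**Figure D5:**
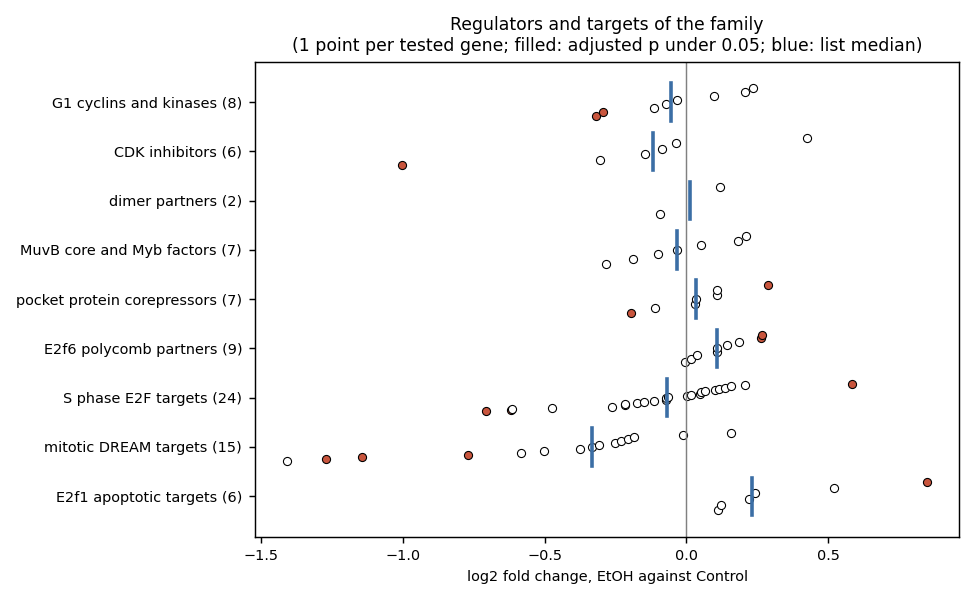
Log2 fold change, EtOH (n = 5) against Control mice (n = 7), of each tested gene in 9 lists of regulators and targets, with the number tested in brackets, filled points for an adjusted p under 0.05 and blue lines for list medians. The mitotic list has the lowest median (-0.33) and the apoptotic list the highest (0.23).

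The promoter element was then set against the differences. Among tested genes with a listed window, 536 held the element, and 11.4% of these were higher and 11.4% lower at an adjusted p under 0.05 by edgeR's test. Of the 11909 without it, 12.1% were higher and 11.6% lower. The median log2 fold change was 0.02 with and -0.00196 without the element. The element was present in 11 of 19 listed S phase genes (57.9%) and in 1 of 14 listed mitotic genes (7.14%). Of the 11, Mcm5 and Uhrf1 fell and none rose, with a median of -0.11. The 3 members shown with the element, Rbl1, E2f2 and E2f3, had log2 fold changes of -0.35, 0.52 and 0.10, none of which passed the test.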

How the data were processed

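Cortex RNA of 12 mice, 7 Control and 5 EtOH by their labels, was extracted and sequenced by BGI. The authors used FastQC 0.11.9 for read quality, STAR for alignment (GRCm39, Gencode Release 28), featureCounts for counting and DESeq2 for their own comparison. Strand and multi-mapping settings are not given in the sources used here. The values in the deposited table were taken to be expected counts per gene symbol, without normalization. Fractions occur in 61 symbols, although featureCounts gives whole counts by default and no source used here gives the reason. All values were rounded. Every column was matched to a mouse, with 0 left over.

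Genes were filtered with filterByExpr, normalized with TMM and tested over all 16059 genes by the quasi-likelihood method of edgeR, with p-values adjusted after Benjamini and Hochberg (R 4.3.3, edgeR 4.0.16, limma 3.58.1, DESeq2 1.42.0). Log2 CPM used a prior count of 2. The SE is the log2 fold change divided by the root of F. Intervals are 95%. Fits were tested on simulated data. No 2 libraries of a group were alike within sampling noise (chi-square per degree of freedom at least 7.84). Pairs with Control 5 had 32.8 to 54.7, the other Control pairs 7.84 to 30.3 and the EtOH pairs 9.73 to 33.6.

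The members and the lists of regulators, targets and markers were chosen with earlier results of these data known. Named were all members, listed genes with an adjusted p under 0.05 (up to the 6 with the smallest p per list), Tfdp1, Tfdp2 and the cyclin D genes, and the 3 genes most alike to each of the 3 members with the smallest p. The other listed genes given by value were named after their values were seen, and some listed genes are not reported here one by one. Positions are from Gencode release M39. Alternatives were DESeq2, limma voom, other size factors, filters and fold minimums, a replicate block, marker scores as covariates, each mouse left out, and both deeper libraries left out. The study's other experiments were not analysed here.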

Additional observations from a re-analysis of the deposited data

Results flagged for a closer look

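A single mouse stood far from the rest of its group in 11 of 60 groups of values examined, where chance gives about 3 at 1 in 20 groups. In the totals, Control 5 (40690223 counts, next 32356913) and EtOH 1 (42183029, next 33313165) stood apart. The same mice had the lowest E2f4 of their group, 33.8 CPM in Control 5 (next 41.0) and 30.5 CPM in EtOH 1 (next 35.1). Control 5 was also lowest in E2f5 (8.16 CPM, next 10.7), and EtOH 1 was lowest in the mean log2 CPM of the dimer partners Tfdp1 and Tfdp2 (5.21, next 5.38). EtOH 3 had the lowest E2f1 (11.7 CPM, next 15.4) and the highest astrocyte marker score (7.62, next 7.53). Control 6 had the highest E2f3 (35.4 CPM, next 30.02) and the highest blood marker score (3.79, next 1.14). EtOH 2 had the lowest E2f6 (27.6 CPM, next 31.7). No cause was tested for these values.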

How the results depend on the processing

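No member was called under any alternative that kept a minimum fold change. The number of members with an adjusted p under 0.05 (2) was 1 with the replicate block, 0 with the scores of striatum and hippocampus markers as covariates, and 1 with both deeper libraries left out, an alternative chosen after seeing the data. With each mouse left out it was 1 to 3, and 1 without Control 3, EtOH 1 or EtOH 3. E2f4 kept its direction and threshold in 11 of 12 such fits and in 8 of 8 other alternatives, apart from the covariates (0.25). These covariates cannot be told apart from the group (98.1% of its variance), so their fit says nothing on stability. With them no member passed (adjusted p 0.721 or more) and others turned too, E2f2 from 0.52 to -2.55, Rbl2 from 0.06 to -0.47, E2f6 from -0.04 to 0.54, Rb1 from 0.15 to -0.17 and Rbl1 from -0.35 to 0.05. E2f1 kept them in 10 of 12 and 6 of 8, and with the replicate block it had -0.34 (adjusted p = 0.0849). E2f3 and E2f5 passed only without Control 6 (0.15) and Control 5 (-0.29). Of the 84 tested regulators and targets, 14 passed (16.7%, against 23.7% of all genes) in the main comparison, 0 with the covariates and 7 to 14 with a mouse left out (9 without Control 1, 8 without Control 4, 9 without EtOH 1, 7 without EtOH 5). Over all genes, 1331 were called, 5 with the covariates, 3810 with no minimum fold change, 524 with a log2 fold change over 1 and 1162 to 1501 with a mouse left out. E2f8 had log2 fold changes of either sign, from -0.25 to 0.28 (0.78 with the covariates), and no value where at least 10 counts were required in every mouse. The cause was not tested for any of these changes. Replicate numbers name different mice in each group, and mice with the same number did not deviate together (r from -0.144 to 0.0138). Depth limits Rbl1, E2f2 and E2f8, which rest on 4 to 101 counts per library.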

Other observations

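E2f7, the other atypical E2F and no member of the list, was looked up after the values of the family had been seen. It had 10 to 20 counts per library and lay between 0.306 and 0.532 CPM in Control and between 0.278 and 0.608 CPM in EtOH mice, so the whole Control range was inside the EtOH range.

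The spread within groups was unequal for some members. The coefficient of variation was 10.3% in Control and 2.26% in EtOH mice for Rbl2, and 8.65% and 2.46% for E2f3, whereas for Rb1 it was 9.91% and 10.2%. Single mice widen 2 of the Control coefficients. E2f3 was highest in Control 6 (35.4 CPM, next 30.02) and Rbl2 lowest in Control 3 (28.4 CPM, next 33.4). The coefficients were not computed without these mice. They were seen in the same data and the difference in spread was not tested.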
